A study of Mus musculus with 24 samples.

Results

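The step described here runs from day 2 to day 3 of embryoid body (EB) culture in control cells, and its members are the genes measured in both groups. The 3 libraries of EBd3 Dox were set against the 3 of EBd2 Dox, joined by Ensembl gene ID, and a gene was kept where its mean over the 6 libraries reached 1. Of 35742 genes in the tables, 22234 were kept and 13508 were not. Close to that minimum, 1492 members had a mean of 1 to 1.5, and 2437 genes outside had a mean of 0.5 to 1. The members include 16091 protein-coding genes, and 17090 members carry a gene symbol.

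Both groups are V6.5 mouse embryonic stem (mES) cells in which BRD2, a bromodomain protein that binds acetylated histones, carries a degron, a sequence that lets the protein be degraded on demand. Cells were grown in serum medium with 2 inhibitors (2i, CHIR99021 and PD0325901) and leukaemia inhibitory factor (LIF), and EB were formed without LIF. Doxycycline (Dox, 1 µg/ml for 18 h) was given to both groups, so the degron and Dox are shared by all 6 libraries. The labels call these samples untreated, since indole-3-acetic acid (IAA, the auxin that triggers degradation, 500 µM for 24 h) was left out. The whole series holds 24 libraries, and 6 others (EBd2 and EBd3 with Dox and IAA) are used below to follow the same step. Neither the clone nor whether replicate libraries came from separate cultures is given, so a p-value here reflects library-to-library spread alone, which may be technical. Total RNA of whole EB was sequenced, so a lower level from fewer cells of a type and one from less RNA per cell cannot be told apart.

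An EB is a floating aggregate in which stem cells, once LIF is withdrawn, leave naive pluripotency, the state of the preimplantation epiblast, and pass through a formative state on the way to primed epiblast. Nodal, Wnt, BMP and FGF signals then drive part of the aggregate into the primitive streak, which makes mesoderm and endoderm, while cells that escape these signals take a neural course. The p53 protein switches on genes that hold the cell cycle and promote cell death. The hypoxia-inducible factors switch on glucose uptake, glycolysis and blood vessel signals, and SREBP2 (gene Srebf2) switches on the enzymes that make cholesterol.

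In this step the targets of p53 fell together, while cholesterol enzymes, glucose transporters and hypoxia genes rose. Naive and core pluripotency genes mostly fell, with Nanog as an exception, and the keratin genes Krt8 and Krt18 rose. Of the primitive streak genes, more fell than rose, and T and Mixl1 were low on both days. The promoters of 5 genes are shown here because the p53 list had the lowest median change of 32 lists, and the cholesterol and hypoxia lists the 2 highest. They are 300-base windows from RefSeq (GRCm38.p6, 250 bases before and 50 after the start site), written 5′ to 3′ along the gene, each with its start site within 250 bases of the GENCODE gene start.
Cdkn1a, chr17:29090729-29091028, plus strand: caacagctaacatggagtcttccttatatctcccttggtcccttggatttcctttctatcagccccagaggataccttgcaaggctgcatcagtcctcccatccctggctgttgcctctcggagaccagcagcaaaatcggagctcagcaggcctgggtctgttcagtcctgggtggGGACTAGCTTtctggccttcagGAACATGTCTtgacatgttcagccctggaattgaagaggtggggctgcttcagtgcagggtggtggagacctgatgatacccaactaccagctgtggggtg
Slc2a1, chr4:119108495-119108794, plus strand: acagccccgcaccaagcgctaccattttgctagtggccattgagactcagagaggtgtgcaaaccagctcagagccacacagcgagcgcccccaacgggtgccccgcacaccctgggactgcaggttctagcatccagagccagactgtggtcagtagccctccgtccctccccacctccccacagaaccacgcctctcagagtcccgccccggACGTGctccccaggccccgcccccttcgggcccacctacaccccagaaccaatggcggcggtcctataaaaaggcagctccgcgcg
P4ha1, chr10:59323046-59323345, plus strand: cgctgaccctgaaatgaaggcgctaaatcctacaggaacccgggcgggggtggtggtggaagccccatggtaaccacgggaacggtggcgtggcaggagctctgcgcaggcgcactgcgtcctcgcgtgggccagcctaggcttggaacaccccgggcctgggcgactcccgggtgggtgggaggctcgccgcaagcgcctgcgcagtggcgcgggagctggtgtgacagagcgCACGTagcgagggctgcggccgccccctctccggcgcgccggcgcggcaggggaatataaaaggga
Hmgcs1, chr13:119690101-119690400, plus strand: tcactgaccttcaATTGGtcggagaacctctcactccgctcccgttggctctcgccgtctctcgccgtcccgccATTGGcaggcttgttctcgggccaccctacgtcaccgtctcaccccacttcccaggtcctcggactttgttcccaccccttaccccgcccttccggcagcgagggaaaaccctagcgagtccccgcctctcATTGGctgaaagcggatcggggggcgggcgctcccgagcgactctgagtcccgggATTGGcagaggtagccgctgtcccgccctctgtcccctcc
Msmo1, chr8:64733529-64733828, minus strand: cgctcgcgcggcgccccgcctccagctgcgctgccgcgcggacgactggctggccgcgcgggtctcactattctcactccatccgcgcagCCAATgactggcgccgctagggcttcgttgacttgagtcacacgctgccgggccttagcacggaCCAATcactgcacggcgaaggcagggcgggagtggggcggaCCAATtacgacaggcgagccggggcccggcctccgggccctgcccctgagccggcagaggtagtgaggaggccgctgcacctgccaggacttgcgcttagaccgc
Capitals in Cdkn1a mark a pair of matches to the letters of a 10-base p53 element. ACGTG (the core of the hypoxia response element) is marked on either strand in Slc2a1 and P4ha1. CCAAT is marked on either strand in Hmgcs1 and Msmo1. On the opposite strand ACGTG and CCAAT read CACGT and ATTGG, and the core ACGTG overlaps the E-box CACGTG. Capitals show letter matches alone, and binding at these or at lower-case bases was not tested. In Cdkn1a the lower-case bases directly after the second match nearly repeat it on the opposite strand. They were left unmarked, so the capitals do not settle which bases form a p53 site. Each window covers a single start site, and other start sites of these genes are not shown.

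These motifs were chosen after values were seen, and their shares are descriptions. Among hypoxia and glycolysis genes with a promoter window, 21 of 28 (75%) held ACGTG, against 27.4% of 13146 members with a window and 19.6% of all 32851 windows. CCAAT was in 16 of 16 cholesterol genes with a window, against 42.7% of members and 37.4% of windows. A single p53 element was in 9 of 18 p53 targets, against 8.55% of members. A pair of them with at most 13 bases between was in Cdkn1a alone of these 18, against 0.0609% of members. Of windows of genes that rose at least 2-fold, 25.8% held ACGTG, 41.4% CCAAT and 7.79% a p53 element. In those that fell these shares were 21.7%, 41.5% and 9.29%. ACGTG was in 38.9% of p53 targets, 25% of cholesterol, 20% of Wnt and 0% of streak genes with a window. CCAAT was in 66.7% of p53 targets, 75% of streak, 46.4% of hypoxia and 44% of Wnt genes. Other motifs were searched on both strands in genes that changed at least 2-fold. TCF/LEF (CTTTGAT) was in 2.29% of windows of genes that rose and 3.94% of those that fell, against 3.22% of members, and T-box (GGTGTGA) in 4.43% and 5.35%, against 4.29%. FOXH1 (AATCCAC) was in 2.44% and 3.66%, against 2.43%, the E-box CACGTG in 7.63% and 10.7%, against 11.0%, and the homeodomain motif TAATCC in 7.18% and 8.54%, against 7.09%.

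Levels below are size-factor-normalized counts, given per library or as mean ± SD (n = 3), and changes are log2 fold changes of level plus 1 ± SE, EBd3 over EBd2. A gene is said to have risen or fallen where its adjusted p in limma, with Benjamini-Hochberg adjustment over the 22234 members, was below 0.05. By that rule 10339 members changed (46.5%), of which 4773 rose (21.5%) and 5566 fell (25%). A change of at least 2-fold was seen in 1144 rises (5.15%) and 1901 falls (8.55%). The libraries of the groups did not overlap in 12131 members (54.6%), and the median log2 change of all members was -0.06. Every EBd2 library (11005217 to 13992700 reads) was deeper than every EBd3 library (8353587 to 9371177), so depth and day go together. The mitochondrial share of reads was 0.831% to 0.892% on day 2 and 1.14% to 1.19% on day 3, and the part of these in the results was not tested.

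The third EBd2 library stood apart from the other two of its group. Its chi-square per degree of freedom over genes was 4.49 and 3.77 against them, while they gave 1.29 to each other and the EBd3 libraries gave 1.26 to 1.80. Of the groups with IAA, pairs of EBd2 libraries gave 2.02 to 2.11 and pairs of EBd3 libraries 1.57 to 3.34. In Dusp6 the third EBd2 Dox library was the highest of all 6. Dusp6, an ERK phosphatase, had levels of 894, 1049 and 1847 in the EBd2 libraries and 1383, 1298 and 1469.8 in the EBd3 libraries, and these groups overlapped (log2 0.20 ± 0.16, limma adjusted p = 0.312). Without that library 4892 members rose and 5481 fell.

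Of 4 BET family genes, 0 rose and 3 fell. Brd2 itself, the gene with the degron, fell in these controls (ENSMUSG00000024335, chromosome 17, 34112023 to 34122634). Its levels were 7550.4, 7595 and 7084 in the EBd2 libraries and 4128, 4551 and 4582 in the EBd3 libraries (log2 -0.75 ± 0.04, limma adjusted p = 1.33e-10). All day 3 libraries lay below all day 2 libraries. Brdt, a germ-cell relative, fell from a low level (from 81.6 ± 6.72 to 43.3 ± 6.46). Brd3 had a change of -0.08 ± 0.05 (limma adjusted p = 0.217) with overlapping libraries. RNA levels do not show the BRD2 protein.

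**Figure D1:**
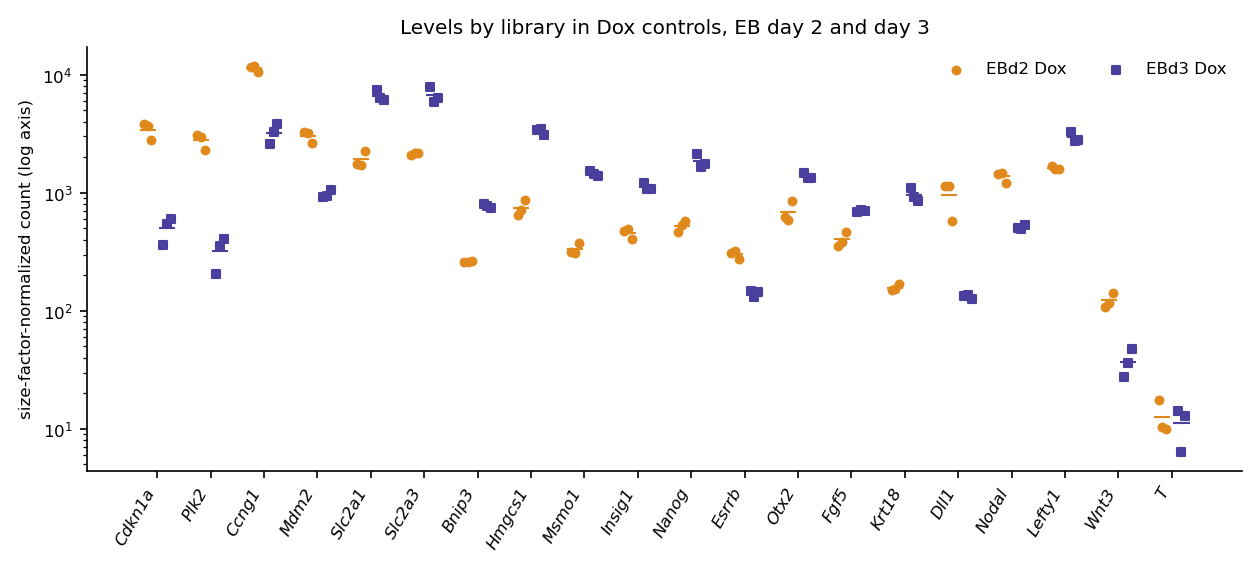
Size-factor-normalized counts (log axis) of 20 genes in the 3 EBd2 Dox libraries (circles) and the 3 EBd3 Dox libraries (squares), with lines at the group means. Cdkn1a lies between 2815 and 3799 on day 2 and between 359 and 599 on day 3, while the libraries of T overlap.

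The p53 targets had the lowest median change of the 32 lists. Of 23 tested, 1 rose and 19 fell, beside 21.5% and 25% of all members, with a median log2 change of -1.30 against -0.06 for all members. The counts were the same without the third EBd2 library. Cdkn1a, which codes for the cyclin-dependent kinase inhibitor p21 (ENSMUSG00000023067, chromosome 17, 29090976 to 29100727), had levels of 3799, 3649 and 2815 in the EBd2 libraries and 359, 541 and 599 in the EBd3 libraries (log2 -2.80 ± 0.13, limma adjusted p = 6.01e-12). The groups lay far apart, although the day 3 values differed among themselves. Plk2, a polo-like kinase induced by p53 (ENSMUSG00000021701, chromosome 13, 110395046 to 110400844), had 3115, 2979 and 2298 in the EBd2 libraries and 204, 352 and 409 in the EBd3 libraries (log2 -3.16 ± 0.16) and was also among the 15 largest falls of genes with a mean of at least 50 in the higher group, under the rule for named genes. Ccng1 (cyclin G1, ENSMUSG00000020326, chromosome 11, 40748552 to 40755311) was the p53 target with the highest count, at 11676, 11793 and 10642 in the EBd2 libraries and 2603, 3269.9 and 3829 in the EBd3 libraries (log2 -1.83 ± 0.09). Mdm2, the ubiquitin ligase that p53 induces and that degrades p53, fell from 3037 ± 354 to 973 ± 72.5 (log2 -1.64 ± 0.07). All 4 genes had their lowest day 2 level in the third library, and it was still above every day 3 level.

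Cell death genes and growth genes were both among the falls. Among cell death genes, Bbc3 (PUMA) fell from 1149.7 ± 228 to 368 ± 41.3, Bax fell from 2451 ± 249 to 1089.9 ± 34.5 and the receptor gene Eda2r fell from 1431 ± 153 to 375 ± 56.3. Fas, a death receptor gene, fell from a low level (10.9, 9.45 and 10.05 on day 2 and 0, 1.06 and 3.18 on day 3). Among growth and stress genes, Phlda3, an inhibitor of AKT, fell from 1593 ± 156 to 261 ± 61.7 and Trp53inp1, a p53 cofactor, fell from 7769.7 ± 764 to 2380.4 ± 251. Btg2, an antiproliferative gene, fell by 1.75 on the log2 scale, Gdf15, a secreted stress factor, by 2.11, and the exonuclease gene Aen by 1.23. Polk, a translesion polymerase, had the smallest called fall of the list (log2 -0.71 ± 0.10).

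Sesn1, a stress-induced regulator of growth signalling, was the 1 member that rose (from 145 ± 20.6 to 199 ± 14.9, log2 0.46 ± 0.11). The other 3 were not called. They were Pmaip1 (NOXA), another cell death gene (2737, 2716 and 2576 on day 2 and 2807, 2717 and 2667 on day 3), Tigar (-0.15 ± 0.07), which restrains glycolysis, and Rrm2b (-0.13 ± 0.13), a ribonucleotide reductase subunit. Pmaip1 overlapped between the days. A pair of genes outside the list was chosen after values were seen. Trp53, the gene of p53, fell from 3818 ± 112 to 2386 ± 121 (log2 -0.68 ± 0.04), and its relative Trp73 fell from 515 ± 77.1 to 92.7 ± 7.005 (log2 -2.45 ± 0.10). Over the 4 Dox stages most of the list was highest on day 2. Of 23 members, 19 had their highest mean in EBd2 among mES, EBd2, EBd3 and EBd4, as did 33.2% of all members. Cdkn1a stood at 1044 ± 12.97 in mES and 121 ± 16.4 in EBd4, and Plk2 at 37.9 ± 3.42 and 62.1 ± 3.65.

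**Figure D2:**
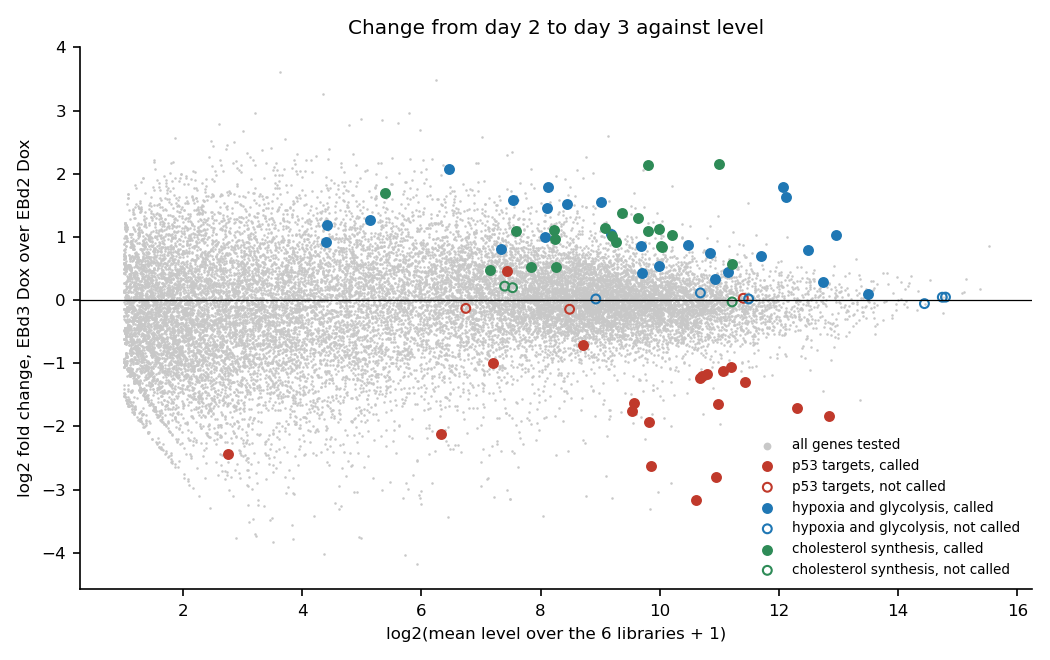
Log2 fold change from EBd2 Dox to EBd3 Dox against the log2 of the mean level over the 6 libraries plus 1, for all 22234 members (grey) and for p53 targets, hypoxia and glycolysis genes, and cholesterol genes (filled where called). All called p53 targets but Sesn1 lie below 0, and no called member of the other lists lies below 0.

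Enzymes of cholesterol synthesis rose along most of the pathway. Of 23 tested, 20 rose and 0 fell, with a median log2 change of 1.02, and 20 rose and 0 fell without the third EBd2 library. Hmgcs1, which makes HMG-CoA at the entry of the pathway (ENSMUSG00000093930, chromosome 13, 119690379 to 119708260), had levels of 646, 720.2 and 876 in the EBd2 libraries and 3431, 3449.8 and 3073 in the EBd3 libraries (log2 2.16 ± 0.08, limma adjusted p = 3.18e-13). Every day 3 library was more than 3-fold above every day 2 library. Msmo1, a sterol C4 demethylase (ENSMUSG00000031604, chromosome 8, 64718139 to 64733792), had 314, 308 and 374 in the EBd2 libraries and 1522, 1455 and 1391 in the EBd3 libraries (log2 2.13 ± 0.07). In between, Idi1, Fdft1, Sqle, Lss and Cyp51, from isoprenoid isomerase to lanosterol demethylase, rose by 1.14, 0.84, 0.86, 1.12 and 1.10 on the log2 scale. The farnesyl diphosphate synthase gene Fdps rose from a low count (19.3, 17.96 and 18.7 on day 2 and 68.9, 55.4 and 64.7 on day 3), and reads of its pseudogenes may be split from it.

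The regulators of the pathway moved with it. Insig1, which retains SREBP in the endoplasmic reticulum, rose from 457 ± 42.8 to 1127 ± 80.8 (log2 1.30 ± 0.07), and Srebf2 rose by 0.57. Scd1, a fatty acid desaturase outside the list and chosen after its values were seen, rose from 328 ± 24.5 to 1364 ± 50.3. Among the 3 not called was Hsd17b7, an enzyme of the later steps (log2 0.20 ± 0.09). Hmgcs1 was lower on day 2 than in the stages around it, and stood at 2490.1 ± 78.7 in mES and 3338 ± 231 in EBd4.

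Genes of hypoxia and glycolysis rose as well, with the glucose transporters among the largest rises and several enzymes of lower glycolysis not called. Of 32 tested, 26 rose and 0 fell, with a median of 0.83. Without the third EBd2 library 26 rose and 1 fell, the enolase gene Eno1. Slc2a1 (GLUT1, ENSMUSG00000028645, chromosome 4, 119108711 to 119137983) had levels of 1767, 1731 and 2279 in the EBd2 libraries and 7476, 6335 and 6156 in the EBd3 libraries (log2 1.80 ± 0.08, limma adjusted p = 4.12e-12). Slc2a3 (GLUT3) had 2101, 2159 and 2182 in the EBd2 libraries and 7855, 5893 and 6350.3 in the EBd3 libraries (log2 1.63 ± 0.07). In both genes the lowest day 3 level was more than 2-fold the highest day 2 level. Of the glycolytic enzymes, Aldoa rose from 5206 ± 369 to 10592 ± 776, Pgk1 rose from 4230.1 ± 133 to 7304 ± 597 and Tpi1 by 0.70 on the log2 scale, while Gapdh (0.05 ± 0.04), Pgam1 (0.02 ± 0.04), Eno1 (-0.06 ± 0.03) and Pkm (0.05 ± 0.04) were not called. Ldha, lactate dehydrogenase, was called at 0.10, and lost the call under 5 of 16 alternatives. Pseudogene copies of several of these enzymes, Gapdh among them, can take part of their reads.

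Among targets of hypoxia-inducible factors, Bnip3, a mitophagy receptor gene, had 259, 261 and 263 in the EBd2 libraries and 800.2, 766 and 750.3 in the EBd3 libraries (log2 1.56 ± 0.06). Both groups were narrow and apart. Vegfa, the vascular growth factor (ENSMUSG00000023951, chromosome 17, 46016993 to 46032369), had 117, 111 and 146 in the EBd2 libraries and 423, 442 and 419 in the EBd3 libraries (log2 1.78 ± 0.10). Ndrg1, a stress-response gene, rose from 32.3 ± 6.03 to 142 ± 44.7 and P4ha1, a collagen prolyl hydroxylase, rose from 92.3 ± 11.6 to 278 ± 36.7. The prolyl hydroxylase genes Egln1 and Egln3, whose products mark the factors for degradation, rose by 1.45 and 1.52. Hif1a itself was not called (1532, 1636 and 1557 on day 2 and 1635, 1729.7 and 1749.9 on day 3, limma adjusted p = 0.0583), nor was P4ha2 (0.02 ± 0.07). In the course of the Dox groups 26 of 32 members had their highest mean in EBd4, against 23.5% of all members. Oxygen was not measured, and size and density of EB are not given by the labels.

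**Figure D3:**
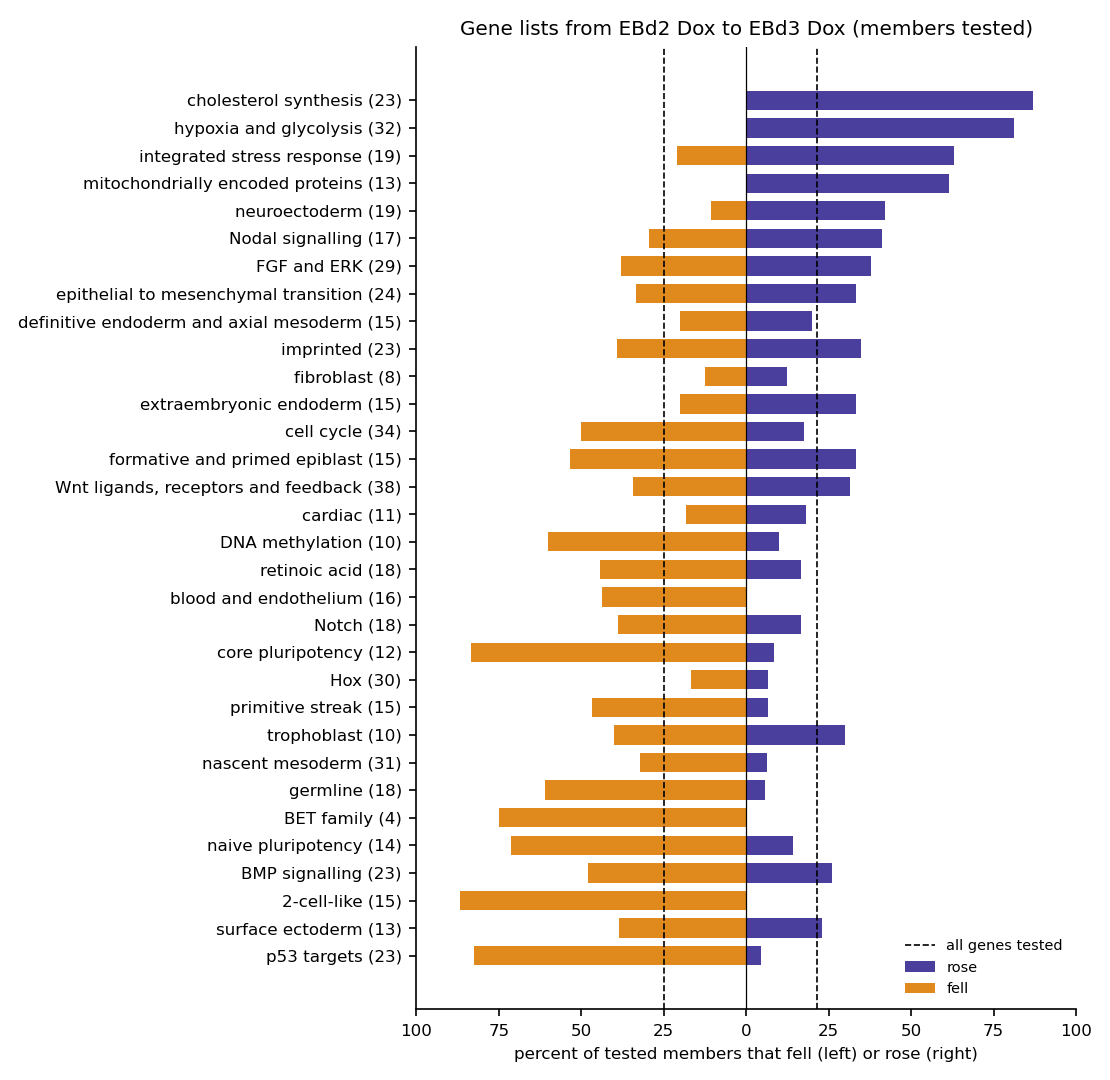
Percent of tested members of each of 32 gene lists that rose (right) or fell (left) from EBd2 Dox to EBd3 Dox, ordered by median log2 change, with the number tested in brackets and dashed lines at the shares of all members (21.5% rose, 25% fell). Cholesterol synthesis and p53 targets stand at the ends of the order.

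The integrated stress response, in which ATF4 raises amino acid synthesis and transport genes, moved both ways. Of 19 tested, 12 rose and 4 fell (median 0.49). The rises included enzymes of synthesis, such as asparagine synthetase Asns (from 1547 ± 74.5 to 3274 ± 128), the serine enzymes Psat1 (from 2992 ± 168 to 5945 ± 169.5) and Phgdh (0.49), and the proline enzyme Aldh18a1 (0.65). Atf4 itself fell from 3703 ± 184 to 2725 ± 34.2, and the stress genes Ddit3 (CHOP) and Sesn2, which is also on the p53 list, fell by 0.94 and 1.21 on the log2 scale. Chac1, which degrades glutathione, rose by 0.97 with a call that DESeq2 did not give.

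Pluripotency genes were then followed, to see how far the cells had left the naive state. Of 14 naive genes tested, 2 rose and 10 fell (median -0.56), and 13 had their highest mean in mES. Klf4, an early reprogramming factor, had 51.98, 51.98 and 39.5 in the EBd2 libraries and 13.1, 15.97 and 11.7 in the EBd3 libraries (log2 -1.74 ± 0.23), after 3037 ± 123 in mES. Esrrb, an orphan receptor of the naive network, had 306, 319 and 276 in the EBd2 libraries and 146, 132 and 144 in the EBd3 libraries (log2 -1.09 ± 0.09), after 8556 ± 187 in mES. Both sets of libraries lay apart. Nr0b1 (DAX1) fell from 319.7 ± 69.3 to 82.997 ± 9.498, Klf2 fell from 652 ± 149.9 to 329.8 ± 22.7 and Zfp42 (REX1) fell from 709.8 ± 26.05 to 588 ± 40.5. Tbx3 was called down (-1.41 ± 0.31), but library 3 of EBd2 (54.5) lay within the day 3 range, unlike the first and second (190.3 and 165). Tfcp2l1 was called at -0.29 and lost the call under 7 of 16 alternatives.

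Nanog, a homeobox gene of the pluripotency network (ENSMUSG00000012396, chromosome 6, 122707489 to 122714633), went the other way. Its levels were 469.5, 532 and 575 in the EBd2 libraries and 2121, 1652 and 1756 in the EBd3 libraries (log2 1.80 ± 0.08, limma adjusted p = 3.87e-12). All day 3 libraries were more than 2-fold above all day 2 libraries. Over the course it stood at 9598 ± 41.5 in mES and 4788 ± 108 in EBd4, so day 2 was its lowest group mean. Fbxo15 was the other naive gene that rose (0.32). The summed level of the naive list, Nanog included, was 3134 to 3686 on day 2 and 3603 to 4114 on day 3. Nanog alone rose by more than this sum did, so the other members, summed, were lower on day 3.

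Of 12 core pluripotency genes, 1 rose and 10 fell (median -0.40), by modest amounts. Pou5f1 (OCT4, ENSMUSG00000024406, chromosome 17, 35506018 to 35510772) had 9323, 9411 and 8517 in the EBd2 libraries and 6867, 6816 and 7112 in the EBd3 libraries (log2 -0.39 ± 0.04). Sox2 fell from 1536 ± 75.2 to 1216 ± 47.7 (log2 -0.34 ± 0.05). Dppa2, a chromatin regulator, fell from 1489 ± 14.05 to 777 ± 59.6, Lin28b rose (0.35) and Lin28a was not called (0.04 ± 0.04).

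Formative and primed epiblast genes moved both ways. Of 15 tested, 5 rose and 8 fell (median -0.25). Otx2, a homeobox gene that directs exit to the formative state, had 622, 583 and 847 in the EBd2 libraries and 1482, 1345 and 1338 in the EBd3 libraries (log2 1.04 ± 0.09). Fgf5, a ligand gene of postimplantation epiblast, had 357, 383 and 469 in the EBd2 libraries and 686, 708 and 695 in the EBd3 libraries (log2 0.80 ± 0.08), with a mean of 0 in mES. Neither gene overlapped between the days. Pou3f1 (OCT6) fell from 2195 ± 402 to 1616 ± 92.3, Lef1, a nuclear partner of beta-catenin, fell from 487 ± 27.6 to 179 ± 15.9, and Foxd3 fell by 0.87 on the log2 scale.

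DNA methylation genes followed the epiblast list in part. Of 10 tested, 1 rose and 6 fell. Dnmt3b, a methyltransferase for new sites, rose from 21015 ± 308 to 26262 ± 662 (log2 0.32 ± 0.03), while Dnmt3a fell from 9700.4 ± 462 to 7875 ± 367, and the cofactor gene Dnmt3l had 3496, 3269 and 3034 in the EBd2 libraries and 800.2, 866 and 844 in the EBd3 libraries (log2 -1.96 ± 0.05, limma adjusted p = 1.43e-14). Per kb of annotated exons, the mean level went from 4116 to 5143 for Dnmt3b, from 583 to 473 for Dnmt3a and from 1093 to 280.0 for Dnmt3l. On that scale Dnmt3b was the highest of these 3 on both days.

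**Figure D4:**
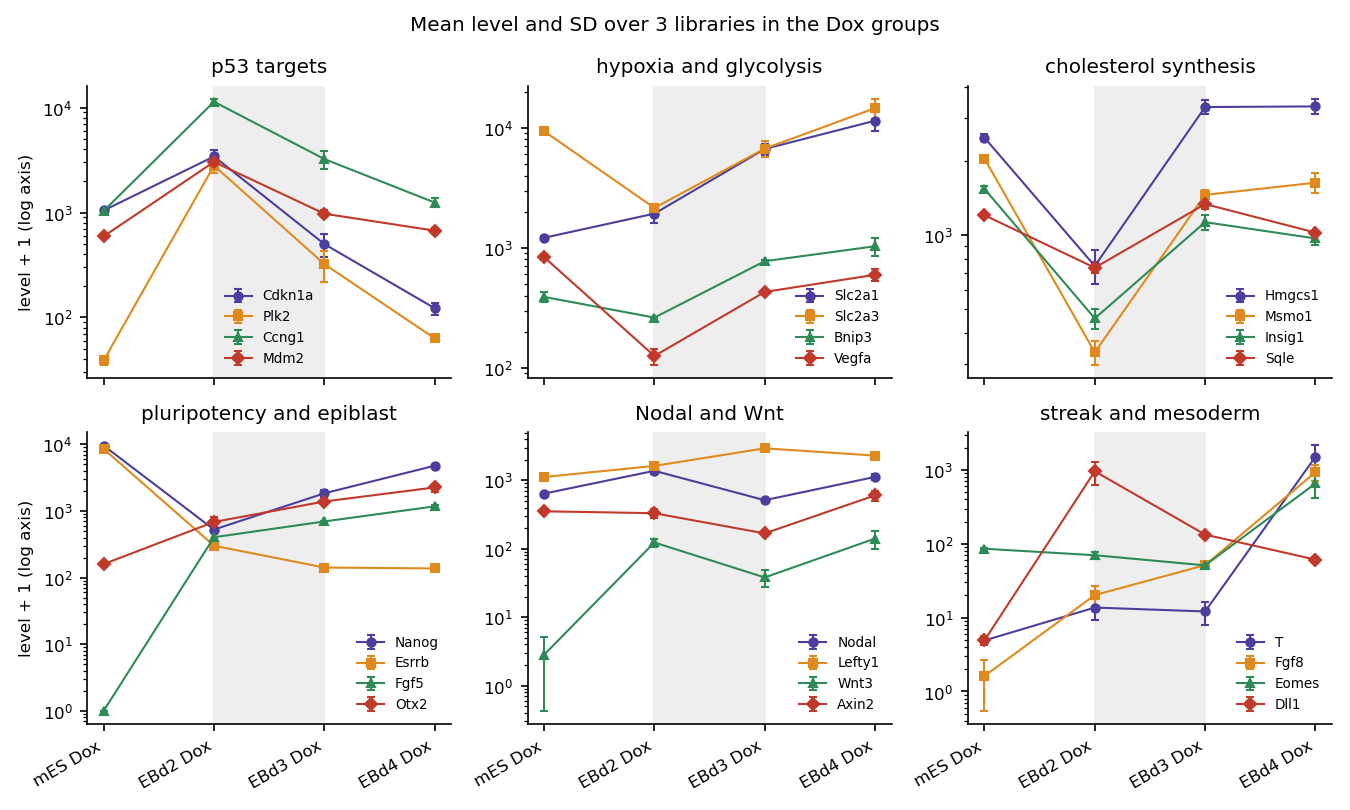
Mean level plus 1 with SD over 3 libraries (log axis) in mES Dox, EBd2 Dox, EBd3 Dox and EBd4 Dox, for 4 genes of each of 6 groups, with the step from day 2 to day 3 shaded. Cdkn1a, Plk2, Ccng1 and Mdm2 are highest in EBd2, and T, Fgf8 and Eomes are highest in EBd4.

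Primitive streak genes fell more often than they rose. Of 15 tested, 1 rose and 7 fell (median -0.45), and Wnt3a had a mean below 1. Without the third EBd2 library 1 rose and 6 fell. T (brachyury), the streak transcription factor, had 17.6, 10.4 and 10.05 in the EBd2 libraries and 14.2, 6.39 and 12.7 in the EBd3 libraries and Mixl1 had 6.71, 17.96 and 9.33 in the EBd2 libraries and 8.31, 18.1 and 8.49 in the EBd3 libraries. Neither was called, their libraries overlapped, and their EBd4 means were 1506 ± 638 and 96.2 ± 46.2. Fgf8, a streak growth factor, was the 1 member that rose (15.9, 15.1 and 26.6 on day 2 and 54.6, 46.8 and 49.9 on day 3, log2 1.39 ± 0.23). Wnt3, the ligand needed to start the streak (ENSMUSG00000000125, chromosome 11, 103774150 to 103817957), had 108, 117 and 142 in the EBd2 libraries and 27.3, 36.2 and 47.8 in the EBd3 libraries (log2 -1.72 ± 0.18). Eomes, a T-box gene, was called down (-0.45 ± 0.16) and lost the call under 5 of 16 alternatives, and Wnt8a fell from 202 ± 8.23 to 131 ± 6.95, except in a fit of all 24 libraries. The growth factor gene Fgf4, also active in stem cells, fell from 3279 ± 491 to 2016 ± 18.01. Later, 13 of 15 members had their highest mean in EBd4, and the summed level of the list was 4893 to 5543 on day 2 and 2816 to 2872 on day 3. At the levels given above, Fgf4 was the larger part of this sum on both days.

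In the nascent mesoderm list 2 rose and 10 fell of 31 tested. The median was -0.52, or -0.23 without the third EBd3 library. Among all protein-coding members with a mean of 1 to 10, 4.33% rose, 17.9% fell and the median was -0.39. With a minimum mean of 10 the list had 1 rise and 6 falls and a median of -0.38. DESeq2 gave 1 rise and 9 falls, and leaving out the second EBd3 library gave 1 and 12. Dll1, a Notch ligand of paraxial mesoderm that also marks early neural cells (ENSMUSG00000014773, chromosome 17, 15367354 to 15376872), had 1144, 1151 and 578 in the EBd2 libraries and 133, 137 and 126 in the EBd3 libraries (log2 -2.78 ± 0.17, limma adjusted p = 1.69e-10). The third EBd2 library was the lowest of its group and still above the day 3 libraries. Mesp1, which marks cardiac mesoderm, had at most 2.84 on either day. Snai1, a repressor of epithelial genes, fell from 77.95 ± 13.7 to 25.9 ± 7.98, and the list's summed level was 4892 to 6071 on day 2 and 3055 to 3398 on day 3.

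The Nodal pathway split between its ligand and its inhibitors. Of 17 tested, 7 rose and 5 fell, and Cer1 had a mean below 1. The median of 0.21 ranged from 0.04 without the first EBd3 library to 0.36 without the second, with 0.07 without the second EBd2 library and 0.09 without the third EBd3 library. Nodal, the ligand (ENSMUSG00000037171, chromosome 10, 61417972 to 61425338), had 1447, 1485 and 1203 in the EBd2 libraries and 503, 494 and 538 in the EBd3 libraries (log2 -1.42 ± 0.07, limma adjusted p = 1.1e-11). The related ligand gene Gdf3 fell from 1649 ± 104 to 673 ± 39.4 (log2 -1.29 ± 0.06). Lefty1, a secreted inhibitor of Nodal (ENSMUSG00000038793, chromosome 1, 180935022 to 180938400), had 1688, 1605 and 1582 in the EBd2 libraries and 3276, 2724 and 2819.6 in the EBd3 libraries (log2 0.85 ± 0.06). Lefty2 rose from 379 ± 16.3 to 673 ± 49.7, and the protease gene Furin, which processes the ligand, rose from 186 ± 31.1 to 472 ± 17.5. Receptors and effectors were Acvr1b (0.58), Acvr2b (0.69) and Smad3 (0.82), which rose, and Acvr2a (0.01 ± 0.09) and Smad2 (0.03 ± 0.06), which were not called. The co-receptor gene Tdgf1 and the nuclear partner Foxh1 fell by 0.30 and 0.44 on the log2 scale.

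Wnt genes moved both ways. Of 38 tested, 12 rose and 13 fell. The median of -0.30 turned to 0.06 with a minimum mean of 10, and was -0.19 without the first EBd3 library. The ligands Wnt3, Wnt6 (22.6, 28.4 and 22.2 on day 2 and 1.19, 3.19 and 2.12 on day 3) and Wnt5b (-0.86) fell. So did feedback targets, among them Axin2 (357, 356 and 276 on day 2 and 158, 161 and 181 on day 3, log2 -0.97 ± 0.10), Sp5 from a low level (21.8, 34.97 and 18.7 on day 2 and 0, 2.13 and 2.12 on day 3) and Sp8 (-1.70). Porcn and Wls, needed to make and secrete Wnt proteins, rose by 0.54 and 0.51, and the receptors Lrp5, Lrp6, Fzd5 and Fzd7 by 0.25, 0.38, 0.28 and 0.38. The receptor gene Fzd10 fell from 195 ± 14.4 to 63.8 ± 19.8. Beta-catenin itself (Ctnnb1) was not called (-0.02 ± 0.04).

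BMP signalling had 6 rises and 11 falls among 23. With a minimum mean of 10 there were 6 rises and 6 falls and the median turned from -0.61 to 0.11. DESeq2 gave 5 and 6, and without the third EBd3 library the median was -0.31. Its target genes Id1, Id2 and Id3, which block basic helix-loop-helix factors, fell by 0.93, 0.77 and 0.97 on the log2 scale. Fst, which binds activin and BMP, fell from 346 ± 18.2 to 97.6 ± 35.2, while the receptor gene Bmpr1a and the effectors Smad1 and Smad5 rose by 0.37, 0.39 and 0.36. Bmp4 was low (31.9, 30.2 and 37.3 on day 2 and 28.5, 24.5 and 14.9 on day 3) and not called.

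Genes of FGF and ERK signalling were 11 up and 11 down of 29. Egr1, an immediate early target, rose from 209 ± 43.6 to 379 ± 48.9 and the feedback inhibitor Spry2 rose from 556 ± 140.0 to 888 ± 12.02, while Etv4 fell from 1130.0 ± 152 to 558 ± 98.3 and Myc, a growth regulator, fell from 310.2 ± 79.8 to 166 ± 12.5. In Spry2 and Myc the third EBd2 library was the highest of its group. Notch genes had 3 rises and 7 falls of 18, with the target Hes1 up (0.73) and the ligands Jag1 and Dll1 down (-1.15 and -2.78). Retinoic acid genes had 3 rises and 8 falls of 18 (3 and 5 in DESeq2), with Dhrs3, a retinaldehyde reductase, up (1.83) and the binding protein gene Crabp1 down (-1.47).

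Epithelial and mesenchymal genes were then compared. In the list of epithelial to mesenchymal transition, 8 rose and 8 fell of 24 (median 0.09). The tight junction genes Cldn3, Cldn7 and Ocln rose from 44.4 ± 6.96 to 159.6 ± 8.79, from 347 ± 13.4 to 733 ± 33.3 and from 132 ± 8.097 to 287 ± 36.7. E-cadherin (Cdh1) rose by 0.23 and the splicing regulator Esrp1 by 0.65, while vimentin (Vim) and fibronectin (Fn1) fell by 0.72 and 0.41. N-cadherin (Cdh2) was not called (0.27 ± 0.12). In the list of definitive endoderm and axial mesoderm 3 rose and 3 fell of 15 (3 and 1 in DESeq2). Its largest rises were in the simple-epithelium keratin genes Krt18 and Krt8, with Krt18 (ENSMUSG00000023043, chromosome 15, 102028180 to 102032027) at 149, 154 and 169 in the EBd2 libraries and 1101, 926 and 856 in the EBd3 libraries (log2 2.60 ± 0.09, limma adjusted p = 1.08e-13). Its partner Krt8 rose from 172 ± 19.4 to 659.8 ± 18.4 (log2 1.94 ± 0.08). All day 3 libraries of both were above all day 2 libraries. Not every keratin gene shared this direction, and Krt42, chosen after its values were seen, fell from a mean of 21.5 to 3.35 (log2 -2.41). The third rise was that of Trh, a neuropeptide gene (1.33). Defining endoderm genes were low, with Sox17 at 9.22, 9.45 and 5.74 on day 2 and 4.75, 7.45 and 3.18 on day 3 and Foxa2 at 6.71, 0.945 and 1.44 on day 2 and 2.37, 3.19 and 1.06 on day 3, and neither was called.

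In the neuroectoderm list 8 rose and 2 fell of 19 (median 0.22), and the summed level was 5789.6 to 6813 on day 2 and 8628 to 8822 on day 3. Pax6, an eye and forebrain regulator (ENSMUSG00000027168, chromosome 2, 105668900 to 105697364), had 93.1, 103 and 106 in the EBd2 libraries and 248, 241 and 260.0 in the EBd3 libraries (log2 1.30 ± 0.10). Tubb3, a neuronal tubulin, rose from 319.9 ± 23.03 to 748 ± 43.4, Nes (nestin) rose from 724 ± 26.6 to 1328 ± 73.02 and Sox1 rose from 42.3 ± 11.3 to 67.7 ± 4.92. Neural transcription factors were among the 15 largest falls of non-overlapping genes whose higher group averaged 50 or more. Nkx2-9 had 113, 117 and 108 in the EBd2 libraries and 1.19, 9.58 and 9.55 in the EBd3 libraries (log2 -4.18 ± 0.41), Pou4f3 had 83.01, 102 and 112 in the EBd2 libraries and 4.75, 4.26 and 6.37 in the EBd3 libraries (log2 -4.03 ± 0.24), and Neurod1 had 323, 337 and 299 in the EBd2 libraries and 24.9, 43.6 and 39.3 in the EBd3 libraries (log2 -3.15 ± 0.16). All 3 were near 0 in mES, with means of 0.909, 0.302 and 0.881, and their EBd4 means were 1.67, 2.51 and 9.67.

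The other large falls by that rule were those of Smtnl1 (-3.76), Col6a4 (-3.75), the T-cell costimulator gene Cd80 (-3.43), Gadd45g, a growth arrest gene (2013, 1938 and 1014 in the EBd2 libraries and 160.3, 165 and 154 in the EBd3 libraries), Vwa3b (-3.22), Sall3 (-3.15), the titin gene Ttn (1161, 1013 and 969.6 in the EBd2 libraries and 94.98, 136 and 128 in the EBd3 libraries), Eprn (-3.13), Ptprv (-3.12), Galnt6 (-3.11) and the leukotriene receptor gene Ltb4r2 (-3.08). Among genes with a mean of at least 50 in the higher group, under the same rule, the largest rise was that of Rgl3, a Ral guanine exchange factor (ENSMUSG00000040146, chromosome 9, 21968711 to 21989446), with 6.71, 14.2 and 14.4 in the EBd2 libraries and 160.3, 131 and 119 in the EBd3 libraries (log2 3.49 ± 0.24, limma adjusted p = 9.41e-10). It was followed by Zc3h6 (2.97), the synaptic gene Cplx2 (2.86), Abat, which degrades GABA (2.85), Clic5 (2.80), the neurotrophin receptor gene Ntrk2 (2.69), Krt18, and the carbonic anhydrase gene Car14 (2.58). Then came the lipoprotein receptor gene Vldlr (2.34), Irgm2, an interferon-inducible GTPase (2.29), Nfatc4 (2.27), Matk (2.25), Dpysl2 (2.24), Cables1 (2.23) and Plekhh3 (2.21). Abat, Cplx2 and Rgl3 each had a day 2 level below 20 in every library.

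Cell cycle genes were 6 up and 17 down of 34 (median -0.13). Cdkn1b (p27), an inhibitor of the cycle, rose from 369.7 ± 50.2 to 962 ± 41.3, opposite to Cdkn1a, while Mycn, a growth regulator, fell from 2631 ± 328 to 750.4 ± 68.3. The D and E cyclins Ccnd1, Ccnd2 and Ccne1 fell by 0.67, 1.07 and 0.50. The mitotic genes Ccnb1 (-0.01 ± 0.04), Cdk1 (0.05 ± 0.05) and Plk1 (0.07 ± 0.05) were not called, and Mki67, a proliferation marker, rose by 0.53.

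Lists of markers of other cell types came next. Germline genes had 1 rise and 11 falls of 18, with Taf7l (367, 366 and 286 on day 2 and 52.2, 54.3 and 54.1 on day 3) and the chromatin gene Tex19.1 (from 1190.1 ± 309 to 301 ± 8.96) among the falls, and their summed level was 4227 to 5313 on day 2 and 2358 to 2506 on day 3. In the 2-cell-like list 0 rose and 13 fell of 15, or 8 in the fit of all 24 libraries. Most are near-identical Zscan4, Usp17l and Tcstv copies whose reads may be split, so their separate values are uncertain. Blood and endothelium genes had 0 rises and 7 falls of 16, or 1 and 5 without the third EBd2 library and 0 and 4 in DESeq2, led by the angiopoietin receptor gene Tek (299, 271 and 241 on day 2 and 42.7, 53.2 and 56.2 on day 3) and by Pecam1 (from 512 ± 99.2 to 182 ± 19.6). The globin genes Hbb-y, Hba-x and Hbb-bh1 were below the minimum. Extraembryonic endoderm genes had 5 rises, led by the collagen gene Col4a2 (from 107 ± 8.97 to 246 ± 33.1), and 3 falls of 15, with a summed level of 8989.7 to 9863 on day 2 and 8674 to 8787 on day 3, and Afp and Ttr were at 0 in all 6 libraries. Their part in the results above was not tested.

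Surface ectoderm genes had 3 rises and 5 falls of 13 (median -0.87), cardiac genes 2 rises and 2 falls of 11, and trophoblast genes 3 rises and 4 falls of 10. The summed level of surface ectoderm was 1145 to 1219 on day 2 and 1981 to 2233 on day 3. For trophoblast it was 378 to 418 and 827 to 835, and for cardiac genes 412 to 469 and 268 to 312. In DESeq2 surface ectoderm and trophoblast had 3 and 2 falls, and trophoblast 2 rises. Without the second EBd2 library surface ectoderm had 3 falls, and without the first EBd2 library trophoblast had 2 rises and 2 falls. With a minimum mean of 10 surface ectoderm had 3 falls, trophoblast 2 falls and cardiac genes 1 rise and 1 fall, and the surface ectoderm median was -0.43 with a constant of 5. Krt8 and Krt18 are on the ectoderm list, and Krt8 is also on the trophoblast list. At the levels given above, these keratins together rose by more than the ectoderm sum did. Krt8 alone rose by more than the trophoblast sum. The other members of each of these lists, summed, were therefore lower on day 3. Fibroblast genes had 1 rise and 1 fall of 8, the fall not being called in DESeq2 or without the first or the third EBd2 library or the second or the third EBd3 library, with a summed level of 216 to 277 on day 2 and 343 to 417 on day 3, and Lum and Postn were at 0 on day 3. The fibroblast collagen genes Col1a1 and Col1a2 had at most 21.5 in any of the 6 libraries. Hox genes had 2 rises (6.67%) and 5 falls (16.7%) of 30, with levels under 60 in every library, and 0 rises and 2 falls in DESeq2. These shares lie near the 4.33% and 17.9% of protein-coding members with a mean of 1 to 10. Leaving out the first EBd2 library, or the first or second EBd3 library, gave 0 Hox rises. Imprinted genes had 8 rises and 9 falls of 23, with H19 up (from 134 ± 11.96 to 228 ± 31.1) and Peg3 down (from 7247 ± 368 to 3827 ± 60.98). Of 13 mitochondrial protein genes, 8 rose and 0 fell (median 0.30), led by ND2 (from 7813 ± 353 to 12198 ± 72.6). Their reads are part of the mitochondrial share given above.

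The same step was measured in other libraries, those with Dox and IAA, which share no sample with the controls. There 8976 of the 22234 members changed (40.4%), 4202 up (18.9%) and 4774 down (21.5%). Of the rises, 3211 were in both steps, 67.3% of those in Dox and 76.4% of those in IAA. Of the falls, 3518 were in both, 63.2% and 73.7%. Calls in opposite directions were fewer, with 72 up in Dox and down in IAA, and 39 the reverse. Depth and day went together in the IAA libraries too, with 11648384 to 15732767 reads in EBd2 IAA and 7819522 to 9416260 in EBd3 IAA. Their mitochondrial share was 0.959% to 1.03% on day 2 and 1.25% to 1.26% on day 3. The part of these in the shared calls was not tested. The p53 targets had 1 rise and 20 falls of 23 (median -1.36), and Cdkn1a fell from 2276 ± 73.6 to 351 ± 159 there. Cholesterol genes had 17 rises and 0 falls of 23 (median 0.55), and hypoxia and glycolysis genes had 22 rises and 0 falls of 32 (median 0.60).

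The difference between the steps was tested directly, as an interaction over 12 libraries. It passed in 1535 members (6.9%), with the step more positive in IAA in 639 (2.87%) and less so in 896 (4.03%). These counts were 390 and 660 without the second EBd2 Dox library, and 853 and 1097 without the third. The step was less positive in IAA for 16 of 23 cholesterol genes, 12 of 19 stress response genes, 9 of 32 hypoxia and glycolysis genes, 8 of 15 formative and primed epiblast genes and 7 of 19 neuroectoderm genes. It was more positive for 6 of 14 naive genes and 3 of 23 p53 targets. Hmgcs1, for example, rose from 935 ± 134 to 2329.8 ± 210.1 in IAA, a step that differed from Dox by -0.84 ± 0.12 (limma adjusted p = 5.76e-05). Esrrb went from 139.5 ± 8.47 to 148 ± 33.4 in IAA (difference 1.14 ± 0.17), and Cdkn1a had a difference of 0.00 ± 0.26 (limma adjusted p = 0.995).

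**Figure D5:**
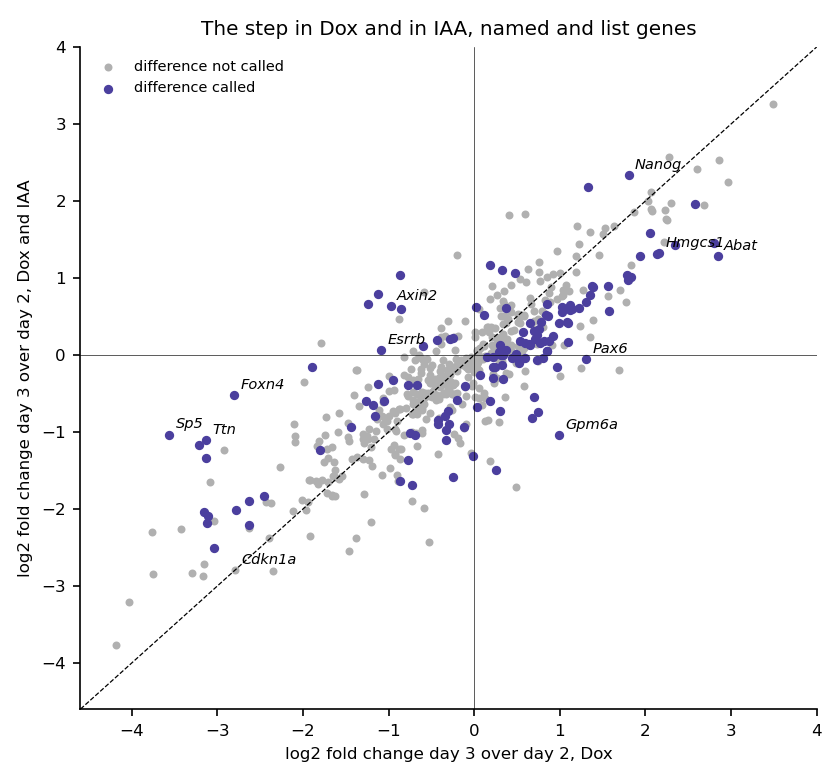
Log2 fold change from day 2 to day 3 in Dox (x axis) and in Dox with IAA (y axis) for 585 named and list genes, with the line of equal change dashed and the 138 genes whose difference between steps was called in dark points. Axin2 and Sp5 lie above the line and Pax6 and Gpm6a below it.

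Some gene features went with the direction of the step. Among protein-coding members spanning under 5 kb, 16.9% rose and 33.8% fell, while of those spanning 100 to 200 kb 33.8% rose and 26.9% fell. With a mean of at least 50 the shares were 23.9% and 44.5% for the short genes, and 43.3% and 29.5% for the long ones. Processed pseudogenes rose in 3.19% and fell in 15.6%. Among protein-coding members with a mean of 1 to 10, 4.33% rose and 17.9% fell, and in that range the shallower EBd3 libraries give fewer reads. At least 1 read was seen for 24697 to 25863 genes in the EBd2 libraries and 23138 to 23446 in the EBd3 libraries. The mES Dox libraries, with 11147216 to 11890640 reads, had 23086 to 23301. The part of depth in the shares above was not tested.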

How the data were processed

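Total RNA was sequenced from 24 libraries, of which the 6 of EBd2 Dox and EBd3 Dox, and 6 with IAA, enter the tests. Per the submitters' processing notes, STAR 2.5.3a, featureCounts 1.5.2, DESeq2 and the build mm10 were used. Strandedness and the annotation are not given in the sources used here, so reads of overlapping and antisense genes cannot be told apart. The deposited signal values are counts that the authors divided by 1 size factor per library. Multiplied back, 100% of positive values were whole within 1e-06. The deposited mean equals that of all 24 libraries, so the 4 tables share their factors. IDs without a symbol (14339) held 1.20% to 1.30% of reads.

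The main test was limma 3.58.1 (R 4.3.3, trend) on log2 of level plus 1, without a block. A fold on that scale understates the change of low genes. On recovered reads edgeR 4.0.16 called 10193 members and DESeq2 1.42.0 called 8135. The script was tested on simulated data. The members, the 32 gene lists and the tests were chosen with earlier results of these data known. Of 567 list genes, 539 were tested, 26 were below the minimum and 2 were not found by symbol. Genes were named as the 15 largest changes each way (limma adjusted p below 0.05, mean of at least 50 in the higher group, no overlap), 38 anchor genes, and list members beside their list's count. The 5 largest differences between steps each way, with a mean of at least 50 in the highest group, were added. Gm, Rik and pseudogene names were skipped in these rankings. Further genes, among them Mycn, Polr1a, Polr2a, Eef1a1, Gbp2, Bhlhe40, Abcb1b and Gm26917, were chosen after their values were seen. Positions are from GENCODE M21. Replicate numbers did not pair the libraries (correlation of same-numbered deviations -0.06 to 0.01). Some genes of the lists are counted but not reported here by name.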

Additional observations from a re-analysis of the deposited data

Results flagged for a closer look

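Of the anchor genes and the genes named for this difference, 22 had a step that differed between the IAA and the Dox libraries by the interaction test in limma (adjusted p below 0.05, 12 libraries, 3 per group). Values are the log2 step in IAA minus that in Dox, with SE. No explanation is weighed here. Among all 22234 members, 6.9% had such a difference. The genes named for this difference were picked because it was large, so their part of the 22 is set by that choice. The count of 22 can therefore not be compared with the share of all members.

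The Wnt feedback genes Axin2 (1.61 ± 0.15) and Sp5 (2.53 ± 0.74) had a more positive step in IAA. Axin2 fell from 329.9 ± 46.4 to 167 ± 12.9 in Dox and went from 109 ± 6.505 to 169 ± 15.8 in IAA. Sp5 had a mean of 25.1 in EBd2 Dox, the highest of these groups, and lost the call under 11 alternatives. Foxn4 (2.29 ± 0.24), Vwa3b (2.05 ± 0.50), Ttn (2.03 ± 0.24), Ido2 (1.90 ± 0.26) and Nmnat2 (1.90 ± 0.28) had the 5 largest positive differences of genes with a mean of at least 50 in the highest group. Ttn fell from 1048 ± 100.5 to 119.9 ± 21.9 in Dox and from 117 ± 2.93 to 57.1 ± 22.4 in IAA, from a lower day 2 level. Nanog rose in both and more in IAA (0.53 ± 0.14), a difference lost under 5 alternatives.

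The neural genes Pax6 (-1.36 ± 0.13) and Sox1 (-1.24 ± 0.26) had a less positive step in IAA. Pax6 rose from 101 ± 6.58 to 249.6 ± 9.796 in Dox and went from 261 ± 14.7 to 252 ± 14.3 in IAA. The epiblast genes Fgf5 (-0.84 ± 0.11), Dnmt3b (-0.46 ± 0.05) and Pou3f1 (-0.41 ± 0.11), the Nodal inhibitor gene Lefty1 (-0.79 ± 0.11), Sox2 (-0.46 ± 0.07), Myc (-0.76 ± 0.17) and Brd2 (-0.27 ± 0.06) did so too. The differences of Pou3f1 and Myc were lost under 4 and 2 alternatives. By the same limit, the 5 largest negative differences were those of Gpm6a (-2.04 ± 0.26), Slit2 (-1.75 ± 0.42), Abat (-1.56 ± 0.35), St6gal2 (-1.49 ± 0.33) and Slc4a4 (-1.48 ± 0.18), and that of St6gal2 was lost under 1.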

How the results depend on the processing

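Under 16 alternatives the count of changed genes stayed between 8135 (DESeq2) and 10449 (constant of 5 under the log), beside 10339. Genes changed at least 2-fold were 3045, against 1746 with a constant of 5 and 1855 with a minimum mean of 10. The constant shrinks folds of low genes, and the minimum of 10 tests 14796 genes. Leaving out a library gave 8898 to 10373 changed genes. With a replicate block 10198 changed, although the numbers pair no libraries. Rises made up 46.2% of calls, 49.4% with TMM scaling and 51.4% with total-read scaling, and the median of all genes stayed within -0.10 and -0.01. Of 398 named or list genes called, 341 stayed called with the same sign under every alternative that gave a value, and no call reversed. Depth limits low genes, for which 1 EBd3 library holds few reads.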

Other observations

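Some gene families outside the lists were counted after their values were seen, among members with a mean of at least 20 over the 6 libraries (13092 genes, of which 32.1% rose and 32.8% fell). Of 77 genes of mitochondrial ribosomal proteins, 2 rose and 52 fell, with a median log2 change of -0.25, and of 28 genes of RNA polymerase subunits 1 rose and 23 fell (-0.35). Polr1a fell from 3903 ± 90.8 to 2438 ± 88.4 and Polr2a, the catalytic subunit of RNA polymerase II, fell from 6744 ± 317 to 4539.6 ± 234. Of 27 nucleolar Utp, Nop and Nol genes 2 rose and 17 fell (-0.30). Genes of cytosolic ribosomal proteins went mostly the other way, with 49 rises and 11 falls of 85 (0.17), or 48 and 19 without the third EBd2 library, and Eef1a1, a translation elongation factor, rose from 33466 ± 964 to 60430.2 ± 2917. Members were taken by name, so like-named relatives are counted too. Of these, Rpl10l (-2.06), Rpl3l (-1.51), Rpl39l (-0.72), Rps27l (-0.62) and Rpl7l1 (-0.59) were among the falls. Rpl22l1 (0.67) was among the rises, and Rpl36al and Rps27rt were not called. Ribosomal protein genes have many near-identical pseudogenes, so their counts are uncertain. These medians kept their sign under all 16 alternatives.

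The interferon-inducible GTPase genes Gbp2 (from 51.6 ± 3.38 to 194 ± 42.1) and Irgm2 rose, and Gbp9 was not called (log2 0.09). Genes of this family include close paralogs. Gbp2, Bhlhe40, Abcb1b and Gm26917 were chosen after their values were seen. Bhlhe40, a circadian and stress repressor, rose from 150.5 ± 27.5 to 625 ± 48.01. Abcb1b, a drug efflux transporter gene, fell from 1779 ± 116 to 218 ± 46.3. Gm26917, annotated as a long noncoding RNA gene, had 8509, 8580.0 and 8861 in the EBd2 libraries and 1278, 1469 and 1440.1 in the EBd3 libraries (log2 -2.63 ± 0.05). Every day 2 library was more than 5-fold above every day 3 library. The origin of its reads, and whether they vary with library preparation, was not tested.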
